A study of Homo sapiens with 6 samples.

Results

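Residual pluripotent nuclei are nuclei of a teratoma that still carry RNA of genes typical of the stem cells it grew from. They were taken here as human nuclei with at least 1 UMI (a sequenced RNA molecule counted once) for at least 3 of 6 marker genes, MIR302CHG, XACT, POU5F1, L1TD1, DPPA4 and PCAT14. A human nucleus had at least 500 human UMIs, at least 300 human genes and at least 90% of its UMIs on human genes. The rule was met by 680 of 54030 human nuclei in 6 libraries. The teratomas came from H1, an established line of human embryonic stem cells, mixed with matrigel and injected into the flank of NSG mice, a strain without a working adaptive immune system. The 3 groups, of 2 libraries each, differ in the long noncoding RNA gene LNCPRESS1: WT cells, KO cells and ΔATG cells (titled DATG). The labels do not describe the sequence change in KO or DATG, the number of clones behind a group, or whether the libraries of a group came from separate tumours, so p-values measure the spread between these libraries only. LNCPRESS1 is known as a noncoding RNA of human embryonic stem cells that is kept low by p53 and binds the deacetylase SIRT6.

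A teratoma forms when pluripotent cells leave pluripotency and produce tissue of the embryonic germ layers, and a minority may keep the earlier programme. That programme rests on the transcription factors POU5F1, NANOG and SOX2, on FGF and NODAL signals from the surroundings, and on RNAs restricted to the early embryo. Of the 6 marker genes, MIR302CHG is the host transcript of the miR-302 and miR-367 microRNAs, which favour rapid cell cycling and hold back differentiation genes. XACT is a long noncoding RNA that coats X chromosomes in human pluripotent cells, POU5F1 encodes the factor OCT4, L1TD1 is an RNA-binding protein derived from a LINE-1 element, DPPA4 is a chromatin protein of early embryos, and PCAT14 is a noncoding transcript from an endogenous retrovirus of the HERV-K family.

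The mature microRNAs of the MIR302CHG locus are shown because this host transcript stood highest of the 6 markers relative to the other nuclei, on the log2 scale used below. The locus lies on the minus strand of GRCh38 at chr4:112646476-112650051 (GENCODE 29), within LARP7, which lies on the other strand, and holds 10 mature microRNAs, 5 of them 3p arms. The 3p arms follow 5′ to 3′ as RefSeq gives them (GRCh38.p14), with the seed, bases 2 to 8, in capitals.
hsa-miR-302a-3p: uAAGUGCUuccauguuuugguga
hsa-miR-302b-3p: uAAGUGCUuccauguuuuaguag
hsa-miR-302c-3p: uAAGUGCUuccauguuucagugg
hsa-miR-302d-3p: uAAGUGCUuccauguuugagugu
hsa-miR-367-3p: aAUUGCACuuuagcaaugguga
The seed AAGUGCU is shared by 4 of these arms and by 12 of the 2545 mature human microRNAs in the table, while miR-367 carries AUUGCAC. The libraries measure the host transcript, not the mature microRNAs.

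The stretch of 250 bases before the start of MIR302CHG (GRCh38.p14, minus strand, chr4:112650052-112650301) is shown because POU5F1, another marker, encodes a factor that binds octamer sequences. The octamer ATGCAAAT was searched on both strands, and its match is in capitals.
MIR302CHG promoter: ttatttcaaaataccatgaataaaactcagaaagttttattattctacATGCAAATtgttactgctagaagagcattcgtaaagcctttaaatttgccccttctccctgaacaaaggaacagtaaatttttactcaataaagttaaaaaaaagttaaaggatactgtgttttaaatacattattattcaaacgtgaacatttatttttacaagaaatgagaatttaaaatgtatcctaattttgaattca
The match starts 202 bases before the transcription start. It is a match of letters only, and windows of this length held the octamer at 573 of all 35116 promoters in the table (1.63%). Among the 45 promoters found there for 37 marker, pluripotency and high-ratio genes, 3 held it, those of MIR302CHG, SFRP2 and PIM2.

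Each library held 5542 to 12254 human nuclei and 35785812 to 47574535 UMIs in all, with a median of 2664 to 4065 UMIs per human nucleus. Residual pluripotent nuclei were read more deeply than the rest, with library medians from 6549 UMIs (DATG 2) to 13344 (KO 2), against 2643 to 3977 in the other human nuclei. Scrublet, which scores nuclei against simulated mixtures, called 86 of the 680 (12.6%) doublets, against 7.78% of the others. None of the 680 barcodes met the rule in more than 1 library, although 322 barcodes of human nuclei recurred between libraries. KO 2 had 14 such nuclei and DATG 1 had 7, so levels are given over the 4 libraries with at least 20, which are WT 1, WT 2, KO 1 and DATG 2. KO and DATG are then represented by 1 library each. Levels are in CPM, a gene's share of all human UMIs of the same nuclei on the usual fixed scale, and ± gives the SD over these 4 libraries unless stated.

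LNCPRESS1 itself was close to the detection limit. It gave 9 UMIs in WT 1, 3 in WT 2, 3 in KO 1, 0 in KO 2, 1 in DATG 1 and 3 in DATG 2 over all human nuclei. Of these 19 UMIs, 9 fell in residual pluripotent nuclei, which are 1.26% of nuclei but were read more deeply. These were 2 in WT 1, 3 in WT 2, 2 in KO 1 and 2 in DATG 2. Pooled over the 6 libraries, the level was 0.911 CPM in these nuclei against 0.0464 in the other human nuclei. The library labelled KO 1 thus held the RNA at a count equal to that of WT 2, and whether the counted part of the gene lies in the altered region is not stated in these sources.

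The marker genes chose these nuclei, so their levels are a description with no test. MIR302CHG had 81.9 CPM in WT 1, 139 in WT 2, 262 in KO 1 and 212 in DATG 2, against 2.83 to 10.3 CPM in the other nuclei of these libraries. XACT, at chrX:113616300-114059289 on the minus strand, had 343, 428, 515 and 1002 CPM in the same order, against 38.5 to 74.9. L1TD1 (chr1:62194831-62212328, plus strand) had 97.8, 146, 189 and 398 CPM. DPPA4 (chr3:109326141-109337572, minus strand) had 79.3, 95.01, 130.3 and 311 CPM. In XACT, L1TD1 and DPPA4 the order of the libraries was the same, lowest in WT 1 and highest in DATG 2. PCAT14 (chr22:23536881-23547797, plus strand) had 124, 102, 95.4 and 321 CPM. POU5F1 (chr6:31164337-31180731, minus strand) had 8.52, 13.4, 19.1 and 188 CPM, so that its level in DATG 2 stood far above the other libraries. POU5F1 has processed pseudogenes and PCAT14 shares sequence with other HERV-K copies, and the treatment of such reads in the authors' counting is not stated in these sources.

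A single marker was no sign of these nuclei. L1TD1 had a UMI in 6.85% and XACT in 5.82% of the other human nuclei, and in 6.22% and 6.54% of nuclei with neuron markers (median 4301 UMIs). MIR302CHG was found in 1.14% and POU5F1 in 0.42% of the other nuclei. Nuclei of the mouse host, which lack human genes, had a UMI for a marker in 0.504% (POU5F1) to 1.30% (XACT) of 1389 nuclei, with a median of 259 human UMIs per nucleus. None of these mouse nuclei had 3 markers, which allows a share of up to 0.216%, and 2 had exactly 2. These mouse nuclei held far fewer human UMIs than nuclei that met the rule, so the limit does not bound background in deep human nuclei. How often markers occurred together is a description of the same 6 genes that the rule reads, with no test. POU5F1 had a UMI in 24.4% of the nuclei with at least 3 of the other 5 markers and in 0.378% of those with none. MIR302CHG had one in 66.7% against 0.906% under the same split. Nuclei with at least 3 of the other 5 markers meet the rule by definition. Nuclei that met the rule had a median of 9364 UMIs, against 2910 in the other human nuclei. The part of depth in this split was not tested.

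Nuclei just inside and just outside the rule differed by degree. Exactly 2 markers were held by 1149 nuclei, which stay outside, with a median of 6581 UMIs and 3.698 CPM of ESRG, a primate-specific transcript of embryonic stem cells. Exactly 3 were held by 291 nuclei, with 9029 UMIs and 19.9 CPM of ESRG. ESRG then reached 61.6 CPM in the 213 nuclei with 4 markers, 142 in the 134 with 5 and 238 in the 42 with all 6. Median depth was 8712 to 9353 UMIs in nuclei with 3, 4 or 5 markers and 13789 in those with 6, and its part in these levels was not tested. The steps pool the 6 libraries, and their makeup differed. DATG 2 supplied 52 of the 291 nuclei with 3 markers, 48 of the 213 with 4, 54 of the 134 with 5 and 27 of the 42 with all 6. The part of this makeup was not tested either. NANOG rose along the same steps from 4.72 CPM to 26.4, and LIN28A from 33.3 to 144. GATA4, an endoderm factor, rose from 26.7 CPM with 0 markers to 64.7 with 2 and 115 with 3. It had 116 CPM with 4 markers, 81.3 with 5 and 39.6 with all 6.

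Human nuclei were clustered without the 6 markers to see where these nuclei lay. A cluster of 850 nuclei held 339 of them, 49.9% of all, and was led by LINC00698, DPYS, LINC02955, SHISA9 and ESRG. The next held 135, of which 94 came from KO 1, and was a deep cluster led by neural transcripts (LINC00461, MIR9-3HG) in which Scrublet called 48.0% of nuclei doublets. A further 81 lay in a cluster led by RBPJL, SI, MEG3 and MEG8, with 43.6% called doublets. The remaining 125 were spread over other clusters. Among the 20 nearest neighbours of a nucleus with 3 markers a median of 25% also met the rule, against 90% for nuclei with 5 and 95% for nuclei with 6.

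Genes of pluripotency outside the rule were higher in these nuclei as a group. Of a list of 40 such genes 31 were detected, at 5 CPM or more in either set, and their median log2 ratio to the other human nuclei was 0.94 (10 CPM added to both levels), against 0.02 over all 15559 detected genes. Of the 31, 26 were higher in all 4 libraries, where 22.3% of all genes were, and 5 were at least 2-fold higher in all 4, where 0.334% of all genes were. The rule made this contrast, so these shares are set side by side and support nothing. The 5 without a higher level in every library were SFRP2, EPCAM, FGF4, OTX2 and HESX1. The highest ratio was that of ESRG (chr3:54632122-54639857, minus strand), with 33.3 CPM in WT 1, 35.6 in WT 2, 43.2 in KO 1 and 238 in DATG 2, against a mean of 1.30 in the other nuclei. DNMT3B, the de novo DNA methyltransferase of the early embryo, had 86.7, 107, 154 and 154 CPM, against a mean of 22.4. TDGF1, a co-receptor of NODAL, had 19.3, 28.9, 60.6 and 40.2 CPM against 1.09. LIN28A, which blocks maturation of let-7 microRNAs, had 18.5, 22.2, 40.5 and 159.6 CPM. In all 4 libraries the levels of these 4 genes in residual pluripotent nuclei lay above every level in the other nuclei. The core factors were less distinct. NANOG had 4.45, 7.75, 9.04 and 29.99 CPM against a mean of 1.18, and SOX2, which neural cells also express, had 40.01, 54.7, 71.7 and 80.3 CPM against 40.2. The plot of genes inside and outside these nuclei shows the same separation for ZSCAN10 and USP44 and its loss for SOX2 and OTX2.

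**Figure D1:**
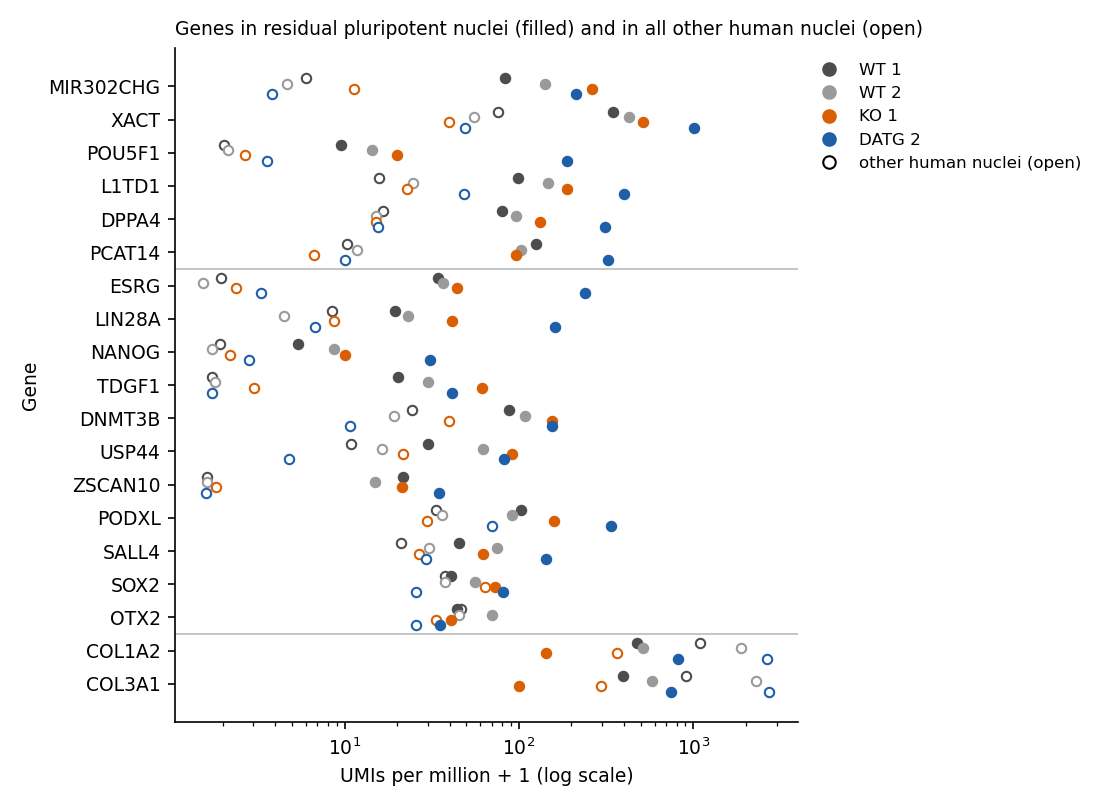
Levels of the 6 marker genes (top), 11 other pluripotency genes (middle) and 2 collagen genes (bottom) in residual pluripotent nuclei (filled points) and all other human nuclei (open points) of the 4 libraries with at least 20 such nuclei; the x axis is the level in CPM plus 1 on a log scale. Filled and open points are apart for ESRG, TDGF1 and ZSCAN10 and overlap for SOX2 and OTX2.

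Most markers of the naive state, an earlier form of pluripotency, were not detected. Of 10 such genes 2 were detected, KLF5 and TFAP2C, with a median log2 ratio of 0.22. Of these 2, 1 was higher in all 4 libraries (22.3% of all genes were). KLF17, DPPA5 and DNMT3L had a mean of 0 to 0.0837 CPM. Primed pluripotent cells depend on NODAL or activin and on FGF, and some genes of both pathways stood higher. In the NODAL and activin list 7 of 12 detected genes were higher in all 4 libraries and 2 were lower (22.3% and 16.8% of all genes were). FST, an activin inhibitor, had 153 ± 71.1 CPM against 57.7. LEFTY1, a NODAL inhibitor, had 9.46 ± 2.75 against 2.53, and NODAL had 9.81 ± 7.76 against 2.31, in all 3 cases higher in all 4 libraries. The transducer SMAD2 had 313 ± 68.0 against 229, while SMAD3 was lower in all 4 libraries, at 161 ± 42.0 against 195. In the FGF list 7 of 16 were higher in all 4. FGFR1 had 507 ± 120.2 CPM against 228 and FGF2 97.3 ± 50.9 against 39.9. Of DNA methylation genes TET1 had 392 ± 77.1 against 259, while TET2 was lower in all 4 libraries at 149 ± 54.9 against 189.98. SLC2A3, a glucose transporter, had 281 ± 129.6 CPM against 109.9.

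The rule also made the contrast for cell cycle genes, which is given as a description. Over all genes the median log2 ratio was 0.02 and 22.3% were higher in all 4 libraries. The median log2 ratio was 0.32 over 39 genes of S phase, 24 of them higher in all 4 libraries, and 0.28 over 50 genes of G2 and M phase, 27 of them higher in all 4. CENPE, a mitotic motor protein, had 171 ± 76.9 CPM against 95.1, and the replication gene POLA1 243 ± 32.6 against 176. Targets of p53 lay at the level of the other nuclei, with a median log2 ratio of -0.01 over 18 detected genes. MDM2, the p53 inhibitor and target, had 75.2 ± 16.4 CPM against 65.6. SIRT6 had 8.55 ± 2.90 against 8.68.

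Genes of early mesendoderm were low in absolute terms. FOXH1, a partner of SMADs, had 16.7 ± 10.5 CPM against 0.597, and EOMES 13.9 ± 8.34 against 1.95. Connective tissue genes were lower. Of 16 mesenchyme genes 14 were lower in all 4 libraries (16.8% of all genes were), with a median log2 ratio of -0.90. COL1A2 had 476 CPM in WT 1, 515 in WT 2, 143 in KO 1 and 811 in DATG 2, against a mean of 1492 in the other nuclei. COL3A1, DCN, POSTN, DKK2, COL1A1, COL6A3, GRM7, CNTN5 and PDZRN4 completed the 10 genes with the lowest ratios, from -1.63 (COL3A1) to -1.42 (PDZRN4). Lower levels were not limited to connective tissue genes. Of 18 neuron genes 10 were lower in all 4 libraries and 1 was higher (16.8% and 22.3% of all genes were). Their median log2 ratio was -0.32.

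The genes with the highest ratios were taken outside the 6 markers, at a mean of 50 CPM or more, which leaves out genes such as TDGF1, and without 9 genes that carry only a clone name. Of the 20 so listed, KCNG3, a potassium channel subunit, had the highest ratio, with 80.4, 100.2, 119 and 146 CPM against a mean of 4.52 (mean log2 ratio 3.04 ± 0.43). LINC00698 followed at 128 ± 116 against 3.63, then ESRG, ACOXL, SHISA9 and GALNT17. HPAT5, a primate-specific noncoding RNA that contains retroviral sequence, had 10.4, 19.1, 81.0 and 158 CPM against 0.751. LINC01090, DNMT3B, TRIM71, FAM20A, SNTG2, SYT6, KEL, LIN28A, USP44, PODXL and CTSV were also on the list. TRIM71, a stem cell RNA-binding protein, had 269 ± 175 CPM against 52.4. The SD over the 4 libraries reached about the size of the mean for LINC00698, HPAT5, ESRG and LIN28A, with DATG 2 the highest library in each.

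The nuclei that met the rule were of several kinds. Clustered on their own, without the 6 markers, they fell into 8 clusters, called member clusters here. Member clusters 1, 5 and 7 (151, 73 and 31 nuclei) had 26, 25 and 25 of the 31 detected pluripotency genes at least 2-fold above the other human nuclei. The other 5 had 2 to 11. Member clusters 1, 5 and 7 were set apart because at least 50% of the 31 genes reached that fold. The list thus gives the label to these 255 of 680 nuclei and cannot test it. The other 425 meet the rule but fall short of that share, and several of their clusters lead with genes of other lineages. Member cluster 4, with 11 of the 31 genes, came nearest to that share. This division was made after the values were seen, on the nuclei it describes, and gets no test. Median depth was 6254 UMIs in the 255, of which 10 were called doublets. Over the 255 nuclei, whose clusters the same list chose, the median log2 ratio of the pluripotency list was 1.88. Of its 31 genes, 20 were at least 2-fold higher in all 4 libraries.

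Member cluster 1 was led by IDO1, HPAT5, KCNG3, SYN3 and VAT1L. IDO1, a tryptophan-degrading enzyme, had 101 CPM against 1.20 in the other human nuclei, and CD24, a surface protein, 497 against 66.5. POU5F1 had 198 CPM and SOX2 130.4. Member cluster 5 was led by ADCY2, TSPEAR, LINC02700, SERPINB9 and FGF4. It had the highest NANOG (59.3 CPM), FGF4 (63.7), GAL (90.4) and ESRG (357) of the 8 clusters, and TBXT, a primitive streak factor, at 37.0 CPM, against 0 in member cluster 1. IDO1 was not found in member cluster 5. Member cluster 7 was led by LINC01162, SLC22A3, KCNG3, SNTG2 and RYR2. It had the highest TDGF1 (193 CPM), DNMT3B (523), ZSCAN10 (145) and LINC00678 (109.9), and POU5F1 at 52.7 CPM. It came from WT 1 (14 nuclei) and WT 2 (17), with no nucleus of the other 4 libraries, while member cluster 5 had 46 nuclei from DATG 2, 22 from KO 1, 4 from WT 2 and 1 from WT 1. A cluster held by the libraries of 1 group may be a feature of those libraries.

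Member cluster 4 (103 nuclei) combined high XACT (1037 CPM) and PCAT14 (499.6) with POU5F1 at only 10.1 CPM and ESRG at 11.2. It was led by LMNTD1, LINC02955, HS6ST3, DNAJC15 and S100Z. GATA4, an endoderm factor, had 580.1 CPM there against 30.4 in the other nuclei, PRDM1, a repressor used in germ cells and endoderm, 958 against 44.7, and BMP6 395 against 43.2. SOX2 was at 8.94 CPM. The median log2 ratio of the early endoderm list was 1.77 in this cluster. Of 103 nuclei 99 lay in the same overall cluster as most of those of member clusters 1, 5 and 7, and 3 were called doublets. It was found in WT 1 (25 nuclei), WT 2 (23), KO 1 (21), KO 2 (4) and DATG 2 (30).

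Member cluster 2 (140 nuclei) was led by LINC00461, SLC6A5, NTRK2, LINC03000 and HOXD3, genes of neural cells, with DCX at 103 CPM and MYT1L at 142. It had POU5F1 at 7.87 CPM and MIR302CHG at 139. Its median depth was 16599 UMIs, and 112 of its nuclei came from KO 1. Member cluster 3 (118 nuclei) was led by RBPJL, MEG8, MEG3, MIR3681HG and GP2, genes that include a pancreatic factor and a pancreatic secretory protein, at a median depth of 20229 UMIs and with 33.1% called doublets. It supplied 58 of 124 nuclei in WT 1 and 39 of 125 in WT 2. Member cluster 6 (43 nuclei, 37.2% called doublets) was led by GABRP, KCNQ5, IGF2, MUC16 and DKK2, and member cluster 8 (21 nuclei) by FGB, SI, AFP, LINC02889 and DCDC2, genes of liver, yolk sac and gut. High depth thus went with member clusters 2 and 3, and doublet calls mainly with 3 and 6. Member cluster 2 had 10% called doublets and member cluster 4 had 2.91% at a median of 7356 UMIs, close to member clusters 1 (5.30%, 5849 UMIs) and 7 (none, 6902 UMIs). The part of depth and doublets in these nuclei meeting the rule was not tested.

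**Figure D2:**
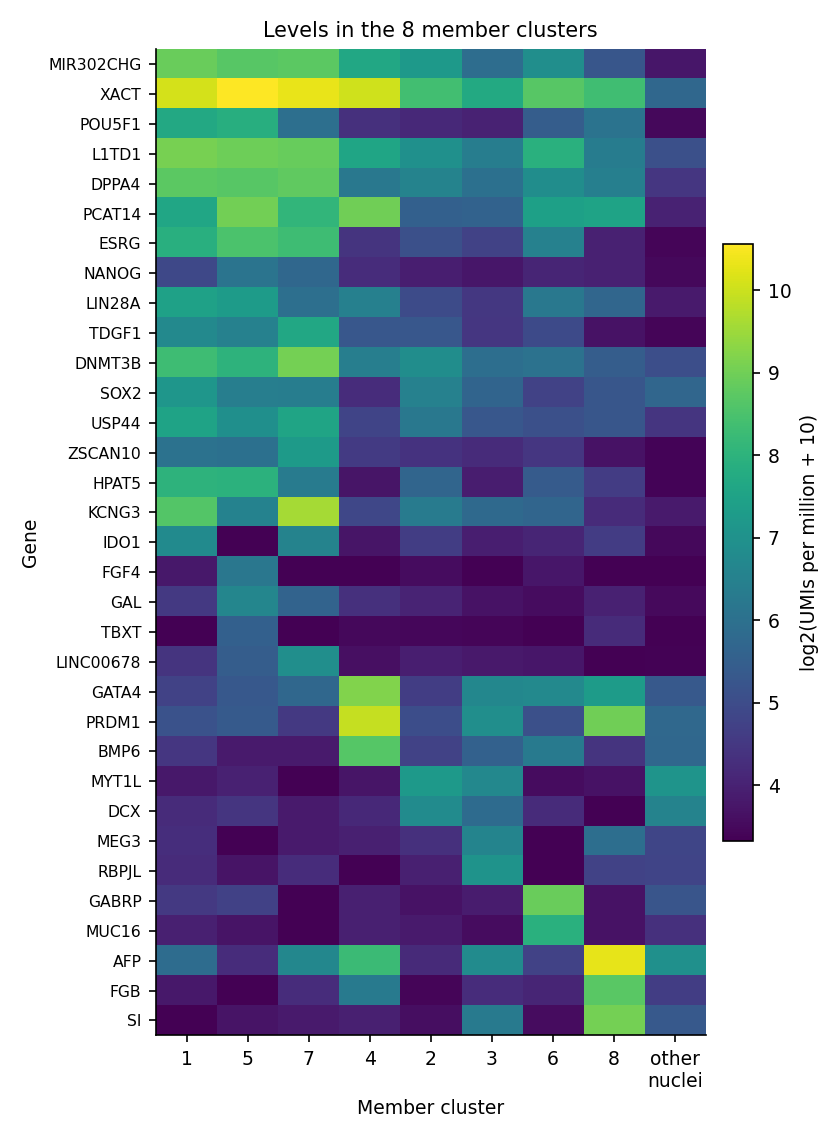
Level of marker, pluripotency and lineage genes (rows) in the 8 member clusters and in all other human nuclei (columns), as log2 of CPM plus 10. Pluripotency genes are mostly brightest in member clusters 1, 5 and 7, GATA4 and PRDM1 in 4, MYT1L and DCX in 2, RBPJL in 3, GABRP in 6 and AFP in 8.

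Whether the LNCPRESS1 genotype changes how many such nuclei a teratoma keeps was asked by comparing their shares. They made up 2.24% of human nuclei in WT 1 and 1.02% in WT 2, 2.27% in KO 1 and 0.176% in KO 2, and 0.0578% in DATG 1 and 2.97% in DATG 2. The 2 KO libraries and the 2 DATG libraries lay at opposite ends of the range. Group means were 1.63% ± 0.861 for WT, 1.22% ± 1.48 for KO and 1.51% ± 2.06 for DATG (SD, n = 2). No difference exceeded the spread between libraries: a two-sided exact permutation test gave p = 1 for each of the 3 comparisons (adjusted p = 1), where 2 libraries against 2 cannot go below 0.3333. Exact (Clopper-Pearson) 95% intervals were 0.850% to 1.21% in WT 2 and 2.56% to 3.43% in DATG 2, and cover counting error only. Since depth differed, nuclei were also thinned to 1000 UMIs each, leaving out 475 to 1101 shallower nuclei per library. The rule was then met by 0.182% in WT 1, 0.0986% in WT 2, 0.250% of nuclei in KO 1, 0.0134% in KO 2 and 0.930% in DATG 2. In DATG 1 it was met by 0 of 11307, which allows up to 0.0265%. The order of the 6 libraries was the same as without thinning. The sign of the difference between DATG and WT turned under thinning and under most other settings, as given in the closing section.

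The 255 nuclei of member clusters 1, 5 and 7 were 0.415% of human nuclei in WT 1, 0.318% in WT 2, 0.733% in KO 1 and 1.95% in DATG 2. None was found in KO 2 or DATG 1, which allows shares of up to 0.0378% and 0.0248%. They were 18.5% of the residual pluripotent nuclei of WT 1, 31.2% of WT 2, 32.3% of KO 1 and 65.7% of DATG 2. The makeup of these nuclei thus differed between the libraries that levels are compared across.

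**Figure D3:**
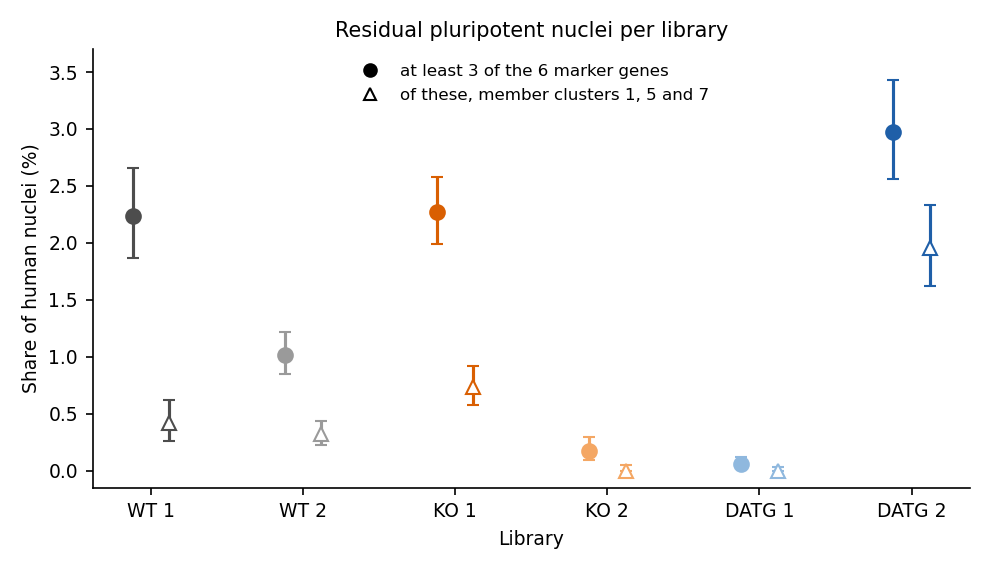
Share of human nuclei in each library that met the rule (filled circles) and that also fell in member clusters 1, 5 and 7 (open triangles), in percent, with exact 95% binomial intervals. Circles run from 0.0578% in DATG 1 to 2.97% in DATG 2, and the libraries of a genotype are far apart in KO and DATG.

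**Figure D4:**
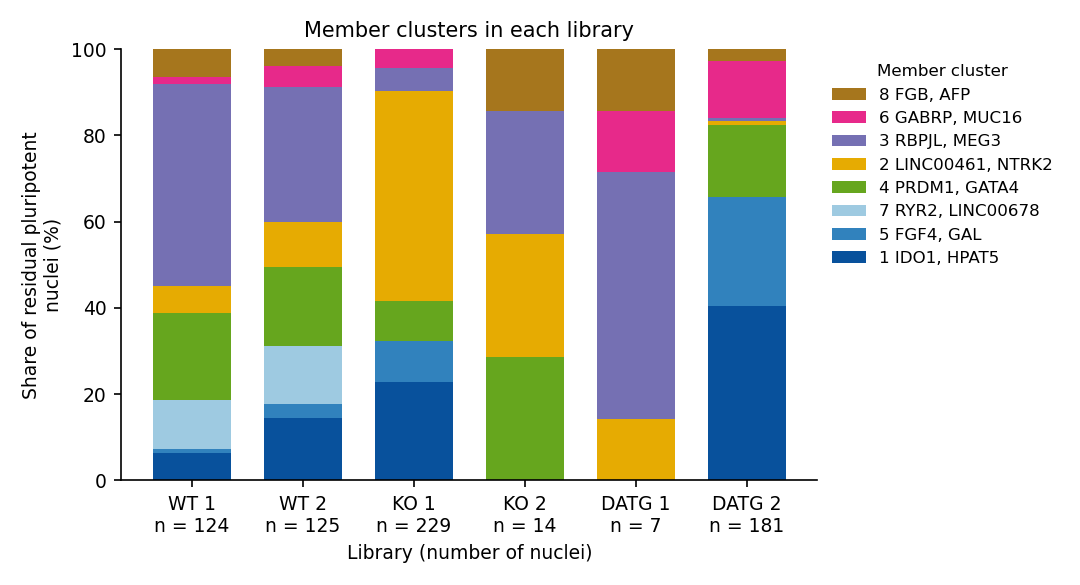
Share of each library's residual pluripotent nuclei in the 8 member clusters, in percent, with the number of nuclei under each bar; blues are the clusters with most pluripotency genes. Blue parts reach 65.7% in DATG 2 and are absent in KO 2 and DATG 1, and member cluster 2 is the largest part of KO 1.

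Expression within residual pluripotent nuclei was compared on UMIs summed per library over all nuclei that met the rule, with the quasi-likelihood test of edgeR over 17590 genes and the 4 libraries. Only the 2 WT libraries are replicates, the lone KO and DATG libraries are assumed to vary like them, and the 6 marker genes are not counted among the calls. The calls compare these libraries, and genotype, library and member cluster makeup cannot be told apart in them. The 3 comparisons share libraries.

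Between KO 1 and WT, 88 genes (0.5%) passed the adjusted p of 0.05, 16 higher (0.091%) and 72 lower (0.409%) in KO 1, a split that was 52 and 130 with RLE scaling. No gene of the pluripotency list was among them (0 of 34 tested, with 7 at an unadjusted p under 0.05 and 0 by DESeq2). TDGF1 was one that did not pass, with 60.6 CPM in KO 1 against 19.3 and 28.9 (log2 difference 1.32, SE 0.37, edgeR adjusted p = 0.183). Of 16 neural progenitor genes PAX3 was higher in KO 1, and of 17 neuron genes STMN2 (0.091% of all genes were). LINC00461, a noncoding RNA of neural cells, had 349 CPM in KO 1 against 80.8 in WT 1 and 91.4 in WT 2 (log2 difference 2.003, SE 0.25, edgeR adjusted p = 0.0102). HOXD3, a factor of the spinal cord and hindbrain, had 65.3 CPM against 8.89 and 7.23, and NTRK2, a neurotrophin receptor, 157 against 45.9 and 43.9. HOXA-AS3, ANK2-AS1, MIR9-3HG and HES6 were also higher. Member cluster 2 held 48.9% of the nuclei of KO 1, against 6.45% and 10.4% in WT, and 79.8% of all HOXD3 UMIs and 76.2% of all LINC00461 UMIs in these nuclei. Within member clusters 1, 5 and 7 HOXD3 and LINC00461 had no UMI in either WT library, and 13.1 CPM (6 UMIs) and 39.2 CPM (18 UMIs) in KO 1. A single UMI in these clusters is 5.98 CPM in WT 1 and 3.58 in WT 2, so the HOXD3 counts are too few to compare. HPAT5, in contrast, had 81.0 CPM in KO 1 against 10.4 and 19.1, and within member clusters 1, 5 and 7 it had 266 in KO 1 against 114 in WT 1 and 89.4 in WT 2.

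Genes lower in KO 1 included products of the pancreas and gut. CLPS, pancreatic colipase, had 23.3 CPM in WT 1 and 18.6 in WT 2 and no UMI in KO 1, at least 20.9-fold lower (against a floor of 3 UMIs in the library). LINC02888, EXOC3L4 and SLC17A4 also had no UMI in KO 1. GP2 had 37.8 and 14.97 CPM in WT and 0.335 in KO 1, a single UMI, and 93.2% of all its UMIs in these nuclei lay in member cluster 3, which held 5.24% of nuclei in KO 1 against 46.8% and 31.2% in WT. Of 16 mesenchyme genes 5 fell (0.409% of all genes did), COL3A1, COL6A3, COL1A2, DCN and COL1A1. COL1A1 had 62.6 CPM in KO 1 against 459.8 and 378 (log2 difference -2.76, SE 0.32, edgeR adjusted p = 0.0056), and it was also low in the other nuclei of KO 1. The summed mesenchyme list there was 1835 CPM in KO 1 against 4676 and 8246 in WT.

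Between DATG 2 and WT 1566 genes (8.9%) passed, 411 higher and 1155 lower in DATG 2. In this comparison 11 of 34 pluripotency genes rose, where 2.34% of all genes did, and none fell. They were LIN28A, ESRG, FGF2, ZFP42, PODXL, GAL, FGF4, NANOG, ZIC2, VRTN and SALL4. LIN28A had 159.6 CPM in DATG 2 against 18.5 and 22.2 (log2 difference 2.98, SE 0.32, edgeR adjusted p = 0.000319). ESRG had 238 against 33.3 and 35.6 (2.79, SE 0.28, edgeR adjusted p = 0.000254), and NANOG 29.99 against 4.45 and 7.75 (2.32, SE 0.53, edgeR adjusted p = 0.0165). DESeq2 called 3 genes of the list higher and 0 lower. DNMT3B (154 CPM against 86.7 and 107) and TDGF1 (40.2 against 19.3 and 28.9) did not pass. MIXL1 and TBXT of the primitive streak list rose in DATG 2 while LHX1 fell, and so rose the NODAL pathway genes NODAL, FST and ACVR2B. VTCN1, HAND1 and GABRP of the trophoblast and amnion list rose too, and GABRP lay for 83.6% of its UMIs in member cluster 6. Of 16 neural progenitor genes 8 fell (6.57% of all genes did), among them RFX4, PAX3 and VIM, and 6 of 17 neuron genes fell, among them MYT1L and DCX. Member cluster 2 held 1.10% of the nuclei of DATG 2.

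By fitted fold change, which is no measure of size where WT had no UMI, the genes named between DATG 2 and WT were C5orf46, AIRE, MT-ATP8, FGF4, GABRP, WNT8A, MT-ND4L and NTS among those that rose and H19, ZBTB20-AS5, MIR217HG, CLPS, ROCR, LHX2, KLHDC8A and LINC01830 among those that fell. C5orf46 and AIRE had no UMI in WT and were at least 7.65-fold and 4.83-fold higher, while GABRP had 163 CPM in DATG 2 against 0.741 and 7.23. H19, the imprinted noncoding RNA, had 80.4 CPM in WT 1, 35.1 in WT 2, 11.4 in KO 1 and no UMI in DATG 2, at least 35.9-fold lower than in WT. Within member clusters 1, 5 and 7 it had 29.9, 32.2, 8.71 and 0 CPM in the same order. These are 5, 9, 4 and 0 UMIs, too few to compare. NTS, the neuropeptide neurotensin, had 19.3 CPM in DATG 2 against 0.370 and 1.03. Mitochondrially encoded transcripts summed to 5829 CPM in DATG 2 against 1354 and 334 in WT, and to 5161 against 1707 and 710 in the other human nuclei of these libraries. Their rise is therefore not limited to residual pluripotent nuclei, and its part in the other calls was not tested.

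Between DATG 2 and KO 1 1805 genes (10.3%) passed, 354 higher and 1451 lower in DATG 2. Of the pluripotency list 6 of 34 rose (2.01% of all genes did) and none fell: LIN28A, ESRG, PODXL, FGF4, VRTN and CDH1. Neural genes fell, 8 of 16 progenitor and 9 of 17 neuron genes (8.25% of all genes did), and of 16 mesenchyme genes 6 rose and MEOX2 fell. COL15A1 had 99.6 CPM in DATG 2 and 39.3 and 38.2 in WT, while KO 1 had 3 UMIs. AQP1 and PTGES, with 17.1 and 10.7 CPM in DATG 2, had no UMI in KO 1, at least 17.1-fold and 10.7-fold higher in DATG 2. PCDH9-AS2 and PRKAR2B-AS1 were among those that fell, at least 31.5-fold and 22.3-fold lower, with 74.8% and 63.9% of their UMIs in member cluster 2.

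Levels were also summed inside member clusters 1, 5 and 7 alone. Makeup differs between libraries here too, since member cluster 7 held 14 of these nuclei in WT 1 and 17 in WT 2 and none in KO 1 or DATG 2. The levels rest on 23 nuclei in WT 1, 39 in WT 2, 74 in KO 1 and 119 in DATG 2, and are given with no test. POU5F1 had 59.8 CPM in WT 1 (10 UMIs), 35.8 in WT 2 (10 UMIs), 84.9 in KO 1 (39 UMIs) and 295 in DATG 2 (311 UMIs). LIN28A had 77.7, 39.3, 93.6 and 209 CPM, and ESRG 227, 182, 146 and 377. FGF4 had 39.8 CPM in DATG 2 (42 UMIs), against 0, 1 and 4 UMIs in the other libraries. In these 4 genes DATG 2 stayed the highest library. NANOG had 35.9, 28.6, 21.8 and 44.6 CPM, a narrower range than over all nuclei that met the rule. In these sums TDGF1, DNMT3B and MIR302CHG were lowest in DATG 2. TDGF1 had 149, 107, 176 and 61.7 CPM, DNMT3B 514, 333, 398 and 237, and MIR302CHG 424, 494, 745 and 296. TERF1, a telomere protein, was also lowest in DATG 2, with 586, 265, 346 and 229 CPM, while JARID2, a Polycomb partner, had 1709.5, 1298, 1267 and 1360.3. L1TD1 had 466, 418, 479 and 555 CPM and DPPA4 442, 265, 348 and 479, both still highest in DATG 2. XACT had 1405, 848, 1106 and 1403 CPM, so that WT 1 and DATG 2 were level. Inside member cluster 1 DATG 2 was not the lowest library for TDGF1 and DNMT3B, though it stayed below KO 1. There TDGF1 had 34.2 CPM in WT 2 (18 nuclei, 146206 UMIs of all genes), 185 in KO 1 and 63.8 in DATG 2. DNMT3B had 253, 412 and 272, so WT 2 was lowest for both, though its TDGF1 level rests on few UMIs. In member cluster 5 TDGF1 had 157 CPM in KO 1 and 59.3 in DATG 2, and DNMT3B 369 and 200. Inside single clusters too, DATG 2 had more POU5F1 and less MIR302CHG than the libraries it is set beside here. Between WT 2 and KO 1 the directions were not opposite, as both genes were higher in KO 1 in member cluster 1. Both are marker genes that chose these nuclei. In member cluster 1 POU5F1 stood at 27.4 CPM in WT 2 (few UMIs), at 89.5 in KO 1 and at 317 in DATG 2. MIR302CHG had 472, 761 and 312 there. In member cluster 5 POU5F1 had 75.1 in KO 1 and 271 in DATG 2, and MIR302CHG 710 and 279.

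**Figure D5:**
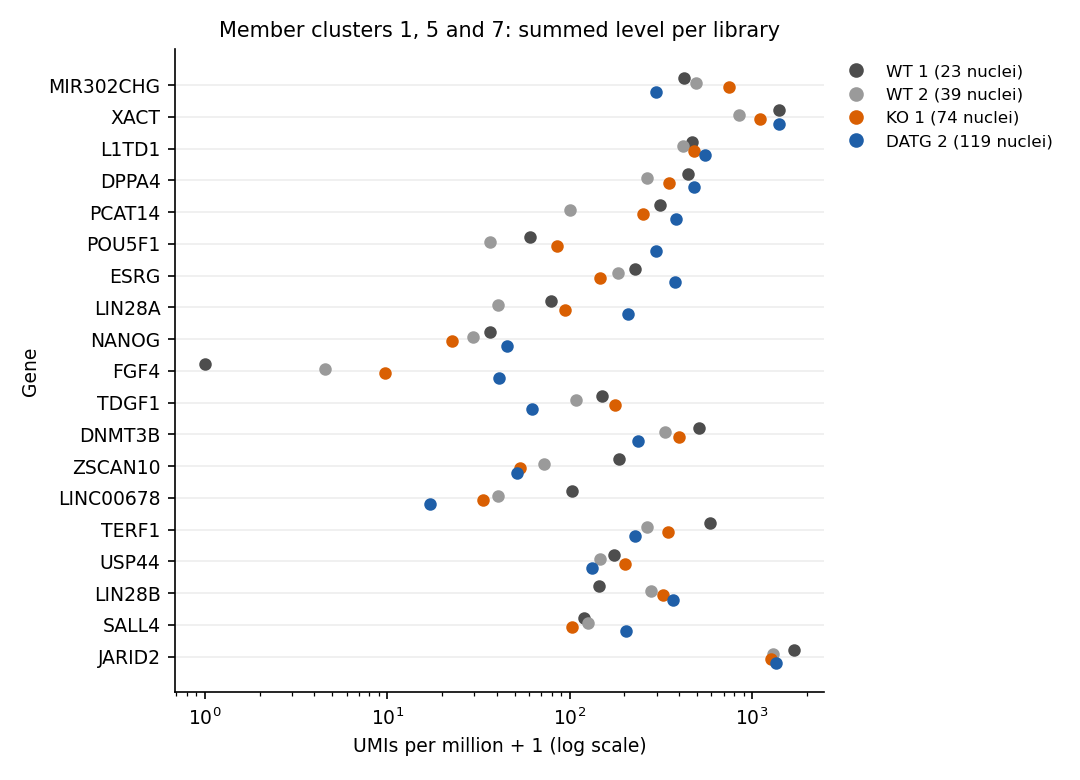
Level of marker and pluripotency genes in the nuclei of member clusters 1, 5 and 7, summed per library, as CPM plus 1 on a log scale, with the number of nuclei in the legend. DATG 2 is highest for POU5F1, ESRG, LIN28A and FGF4 and lowest for MIR302CHG, TDGF1 and DNMT3B.

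The same pluripotency genes were tested over all human nuclei of all 6 libraries, where a sum cannot tell fewer nuclei from less RNA per nucleus. None of 38 genes passed in any of the 3 comparisons with edgeR, where 0% of 27100 genes passed. Of the 38, 3 had an unadjusted p under 0.05 in each, and DESeq2 called 0 of them. In simulated data for KO against WT in this fit, edgeR found 29 of 99 genes set to a 4-fold change. It found 75 of the 99 set to an 8-fold change. The lack of calls therefore does not show that these genes are unchanged. Over all genes DESeq2 called 4 higher and 164 lower between KO and WT, 30 and 70 between DATG and WT, and 55 and 19 between DATG and KO, and 1301, 831 and 1579 had an unadjusted edgeR p under 0.05. Without DATG 1, which leaves DATG as 1 library assumed to vary like the other groups, edgeR called 5 of the list between DATG 2 and WT, where 9.45% of all 28136 genes passed, and 7 between DATG 2 and KO, where 25.6% did. The 5 were FGF4, NANOG and PODXL, higher, and PTPRZ1 and CBR3, lower. Neither count is read as particular to the list. FGF4 then had a log2 difference of 4.19 (edgeR adjusted p = 0.036) and NANOG of 2.01 (edgeR adjusted p = 0.0244) against WT. Leaving out either DATG library called EPCAM and CDH1, epithelial adhesion genes that gut and other epithelia of a teratoma also express, lower in KO than in WT (edgeR adjusted p = 0.00759 and 0.00589 without DATG 1). In these fits 2.95% of all genes (without DATG 1) and 2.8% (without DATG 2) passed between KO and WT, where 0% did with all 6 libraries. Without DATG 2 both genes were also lower in DATG 1 than in WT, where 0.509% of all genes passed.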

How the data were processed

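Single-nucleus RNA was measured in 6 libraries of H1 teratomas (WT, KO and DATG, 2 each). Per the labels' protocols, nuclei were freed on a Singulator and libraries made with the 10x Genomics 3' v3.1 chemistry. The authors deposited raw UMI counts per gene and barcode, not normalized. The submitters' processing notes name Cell Ranger 8.0.1 and the matrix headers 8.0.0, with human and mouse genes in 1 table. Whether introns or strand were used in counting is not stated in these sources.

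Members, gene lists and tests were chosen with earlier results of these data known. Named genes were, by rule, the 6 markers, detected genes of the pluripotency list, the 20 highest and 10 lowest log2 ratios of the same direction in every library at 50 CPM or more, the 3 highest genes of other lists, and, in each comparison, at most 8 called genes that rose and 8 that fell, taken by size of fold change where groups did not overlap. Genes outside it (lineage genes of member clusters, signalling genes such as LEFTY1 and NODAL, naive-state genes, DATG 2 list calls) were chosen after their values were seen. Doublets were called with Scrublet at 0.8% per 1000 nuclei and kept. Human nuclei were clustered with scanpy 1.11.5 and leidenalg 0.10.2 (2000 variable genes, 30 components, 20 neighbours, resolution 1), and members alone with 1000 genes, 15 components, 15 neighbours and resolution 0.6, always without the markers. Summed counts were tested in edgeR 4.0.16 on R 4.3.3 (robust quasi-likelihood, TMM scaling, filterByExpr, Benjamini-Hochberg adjustment), with DESeq2 1.42.0 as an alternative. Log2 differences carry TMM scaling, while printed CPM do not. TMM moved the median of all genes by -0.16 between DATG 2 and WT, and with RLE scaling by -0.07. Tested on simulated data for the KO 1 and WT member sums, edgeR found 67 of the 98 genes set to a 4-fold change, 91 of the 99 set to an 8-fold change and 4 unchanged genes, of 16691. All simulated libraries had the same spread and, but for the genes set to change, the same mean levels. These counts therefore do not give the rate of false calls in the real libraries. All 113 named genes matched GENCODE 29 by identifier. Some genes that the naming rule selects are not reported here.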

Additional observations from a re-analysis of the deposited data

How the results depend on the processing

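The share of residual pluripotent nuclei in DATG minus WT was -0.114 percentage points and turned to 0.224 with at least 4 markers, 0.325 after thinning, and 0.0172, 0.156, 0.121, 0.118 and 0.0231 with MIR302CHG, XACT, L1TD1, DPPA4 or PCAT14 left out of the rule. It kept its sign at -1.97 with at least 2 markers (KO minus WT -2.14), -0.0718 without doublets, -0.101 at 1000 UMIs or more and -0.103 without POU5F1. Within member clusters 1, 5 and 7 alone, a setting chosen after seeing the data, it was 0.610. Leaving out 1 library at a time, this difference ran from -1.57 to 1.34 points, KO minus WT from -1.45 to 0.639, and DATG minus KO from -1.16 to 1.75, each on both sides of 0, and no p came below 0.667. In the contrast with other nuclei, pluripotency genes at least 2-fold higher in all 4 libraries numbered 5, 9 with at least 4 markers, and 20 within member clusters 1, 5 and 7, where the median log2 ratio was 1.88 in place of 0.94. The same gene list chose these clusters.

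Within residual pluripotent nuclei, DESeq2 called 49 genes between KO 1 and WT (43 shared with edgeR), 600 between DATG 2 and WT and 670 between DATG 2 and KO 1. The 88 genes of KO 1 against WT became 182 with RLE scaling (52 higher and 130 lower), 456 with no filter on low counts, 201 without doublets and 324 with at least 4 markers; the cause was not tested. Without DATG 2 they were 71, and without KO 1 DATG 2 against WT gave 1594. Leaving out a WT library leaves no residual degrees of freedom and gave no value. For pluripotency genes over all human nuclei, leaving out 1 library gave 0 to 2 calls between KO and WT, 0 to 5 between DATG and WT and 0 to 7 between DATG and KO, of 38; the fits with most calls passed 2.95%, 9.45% and 25.6% of all genes, and a fit of only the 4 libraries compared gave 2 between KO and WT.

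Libraries with the same replicate number did not deviate together in all pairs of groups (correlations 0.08, -0.17 and 0.35), so the numbers were not taken as pairs. With a replicate block, 0 pluripotency genes were called in each comparison over all human nuclei, and the block could not be fitted within residual pluripotent nuclei. Calls within these nuclei rest on 1 KO and 1 DATG library.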
